A study of Caenorhabditis elegans with 6 samples.

Results

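The transthyretin-related genes of Caenorhabditis elegans, named ttr, were followed in wild-type and zip-3(gk3164) whole larvae, 2 genotypes in all. Members were the probe sets, the groups of short probes that together measure 1 transcript on an Affymetrix array, whose platform annotation gave exactly 1 gene with a symbol starting ttr-. The rule gave 41 probe sets for 40 genes, of 22548 probe sets on each array that were not controls and 17118 genes with a probe set of their own. Both genotypes were fed the control RNAi bacteria, were synchronized by bleaching, grew in liquid culture and were harvested at L4, the final larval stage before the adult, with 3 arrays called biological replicates by the labels for each genotype. zip-3 encodes a transcription factor of the bZIP class. The comparison asked whether the family's transcript levels depend on genotype in larvae on control RNAi.

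Transthyretin is the vertebrate carrier of thyroid hormone and, with a partner protein, of retinol. Nematodes have a large family of small proteins that resemble it, most with a signal for secretion, and the function of most members is unknown. The best studied is TTR-52, a secreted protein that binds phosphatidylserine on the surface of dying cells and bridges it to the engulfment receptor CED-1. The gene table of assembly WBcel235 lists 59 ttr genes, of which 13 are not analysed here, and 6 more were seen only through 3 probe sets that match 2 ttr genes each and are not members. All 41 member probe sets matched the table by gene identifier and symbol. The 40 genes lie on chromosomes I (1 gene), II (1), III (7), IV (9), V (16) and X (6), and 17 of them lie directly beside another ttr gene with no protein-coding gene between. Probe set identifiers of 6 members carry a suffix for sequence shared with other transcripts, those of ttr-15, ttr-18, ttr-44, ttr-50, ttr-51 and 1 of the 2 probe sets of ttr-24, so related transcripts can add to their signals.

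The arrays had median signals of 123.9 to 139.1 on the linear MAS5 scale. The brighter zip-3 probe set read 939.6 to 1203.9 in wild-type and 233.8 to 458.7 in the mutant, with no overlap (log2 difference -1.64 ± 0.28, limma adjusted p = 0.0717). The dimmer zip-3 probe set read 71.9 to 116.8 and 50.8 to 74.9, with overlap (limma adjusted p = 0.393). The mutant arrays were not alike: across the 13529 probe sets tested, mutant arrays 1 and 2 correlated at r = 0.956 while for mutant array 3 the values were 0.925 with mutant array 1, 0.890 with mutant array 2 and 0.943 to 0.958 with the wild-type arrays. Probe sets are not independent, so these correlations describe the arrays only. Results that rest on mutant array 3 are therefore given with and without it. Precision is limited by there being 3 arrays a genotype.

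The ttr genes showed no common direction of difference between the genotypes. Of the 41 probe sets, 33 (32 genes) were bright enough to be tested, with a mean over the 6 arrays of at least 68.7. None of the 33 passed an adjusted p of 0.05 in either direction (limma, Benjamini-Hochberg over all probe sets tested), where 0.118% of all probe sets tested were called higher and 0.0148% lower, and 4 of the 33 had an unadjusted limma p under 0.05. Of the 32 genes, 15 had a positive and 17 a negative log2 difference, mutant minus wild-type, and the median was -0.01. Over the 10369 genes tested, 5475 were positive and the median was 0.03. The median of the family relative to the wild-type mean was -0.01, -0.09 and 0.06 in wild-type arrays 1, 2 and 3, and -0.09, -0.13 and 0.09 in mutant arrays 1, 2 and 3, so the genotypes overlapped. The median size of a member's log2 difference, whatever its sign, was 0.19, against 0.30 over all genes tested, and members read a median signal of 1080.4 against 403.7 over all genes tested, on a scale where dim probe sets are the noisier ones.

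**Figure D1:**
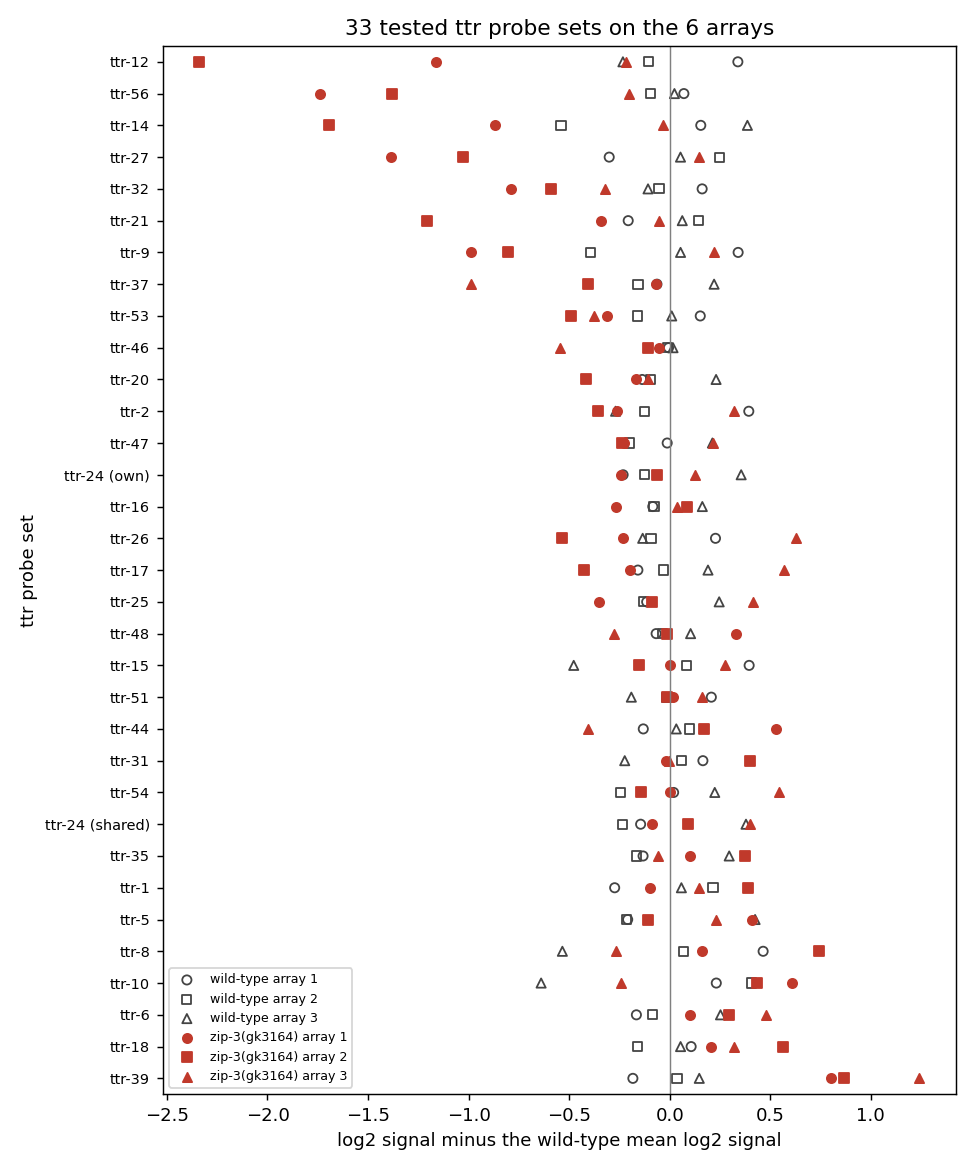
Log2 signal of each of the 33 tested ttr probe sets (rows) minus its wild-type mean, on 3 wild-type arrays (open symbols) and 3 zip-3(gk3164) arrays (filled symbols). Rows are sorted by the genotype difference, from ttr-12 at -1.24 to ttr-39 at 0.97, and in the upper rows mutant arrays 1 and 2 lie far to the left while mutant array 3 lies close to wild-type.

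At an unadjusted limma p under 0.05, 1 ttr probe set was higher, ttr-39, where 10.1% of all probe sets tested were higher at that level, and 3 were lower, ttr-12, ttr-32 and ttr-56, where 9.27% were lower. All 3 mutant arrays lay above all wild-type arrays for 2 members, ttr-39 and ttr-18, where 14.1% of all probe sets tested did so. All 3 lay below for 4 members, ttr-32, ttr-46, ttr-53 and ttr-56, where 8.80% did so. The share of members lower at the unadjusted level, 9.09%, was near the share of all probe sets.

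ttr-39 had the smallest p of the tested members and the largest positive difference among them. Its signal was 132.6, 154.4 and 166.7 in wild-type arrays 1, 2 and 3, and 262.6, 274.2 and 356.1 in mutant arrays 1, 2 and 3. Each mutant array was clearly brighter than the brightest wild-type array. The means of ttr-39 were 151.2 ± 17.3 and 297.6 ± 51.0 (SD, n = 3 arrays each), and its log2 difference was 0.97 ± 0.23 (SE), a 1.96-fold higher signal. This missed the threshold (limma adjusted p = 0.137). The two-sided exact permutation p for ttr-39 was 0.10, and this design of 3 against 3 cannot reach a lower one. Over 16 alternatives the ttr-39 difference ranged from 0.83 to 1.05, and it passed in 2 of them, with array weights and without mutant array 3. Of the 13529 probe sets tested, these settings called 2464 and 807 higher.

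ttr-18 also lay higher on each mutant array, by a smaller amount. Its signal was 3454.9, 2871.0 and 3331.2 in wild-type, and 3700.3, 4739.1 and 4003.0 in the mutant. Wild-type array 1 and mutant array 1 were not far apart. The log2 difference of ttr-18 was 0.36 ± 0.16 (limma adjusted p = 0.275). ttr-6 was next in size on this side, at 0.29 ± 0.18, with mutant array 1 at 2065.0 below wild-type array 3 at 2291.7, so its groups overlapped.

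The lower signal of ttr-32 was shared by all 3 mutant arrays. It read 497.3, 428.5 and 412.7 in wild-type and 257.1, 295.4 and 356.3 in the mutant. All 3 mutant arrays lay below the wild-type range, with mutant array 3 nearest to it. The means of ttr-32 were 446.2 ± 44.995 and 302.9 ± 50.1 (SD, n = 3 each), and the log2 difference was -0.57 ± 0.21 (limma adjusted p = 0.210). Its neighbour on chromosome III, ttr-8, read 257.2 to 513.7 in wild-type and 309.1 to 623.5 in the mutant, which is a log2 difference of 0.21 ± 0.35. The groups of ttr-8 overlapped, with mutant array 2 alone above the wild-type range.

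ttr-56, ttr-12, ttr-14 and ttr-27 had the largest lower differences among the tested members, and in all 4 they were carried by mutant arrays 1 and 2. ttr-56 read 138.5, 123.6 and 134.1 in wild-type and 39.5, 50.6 and 114.5 in the mutant, so mutant array 3 lay just under the wild-type range and the other two far below it. Its log2 difference was -1.11 ± 0.41 (limma adjusted p = 0.210). The 2 low mutant signals of ttr-56 are below the filter of 68.7, in the range where MAS5 signals are noisy.

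ttr-12 read 535.2, 393.1 and 360.1 in wild-type and 189.3, 83.5 and 364.4 in the mutant. Mutant array 3 lay within the wild-type range, and mutant array 2 was the lowest of the 6. The log2 difference of ttr-12 was -1.24 ± 0.50 (limma adjusted p = 0.237), and -0.69 without mutant array 2. ttr-14 read 3257.2, 2011.6 and 3825.0 in wild-type and 1604.4, 905.5 and 2863.8 in the mutant, which is a log2 difference of -0.86 ± 0.43 (limma adjusted p = 0.316), and -0.45 without mutant array 2. Here too mutant array 3 lay inside the wild-type range, which was wide, from 2011.6 to 3825.0. ttr-27 read 215.9, 315.7 and 276.0 in wild-type and 101.9, 130.2 and 293.8 in the mutant, which is a log2 difference of -0.76 ± 0.40 (limma adjusted p = 0.347), and -0.44 without mutant array 1. For ttr-27, mutant array 3 was the second brightest of all arrays.

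**Figure D2:**
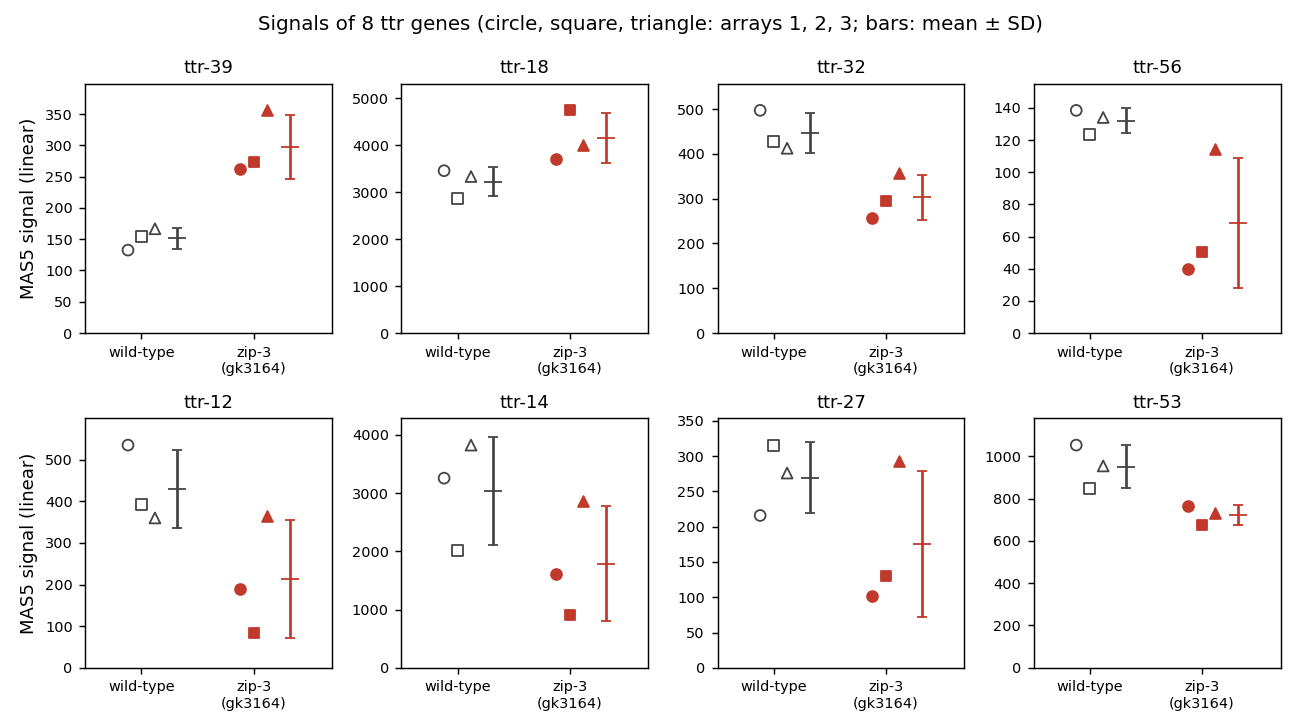
Linear MAS5 signals of 8 ttr genes in wild-type (open symbols) and zip-3(gk3164) (filled symbols), with the mean and SD of the 3 arrays beside them. ttr-39 and ttr-18 are higher on all mutant arrays, ttr-32, ttr-56 and ttr-53 lower on all, and in ttr-12, ttr-14 and ttr-27 the triangle of mutant array 3 lies within the wild-type range.

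The 2 patterns can be counted over the whole family. Mutant arrays 1 and 2 lay below all wild-type arrays while mutant array 3 did not for 9 of the 33 tested probe sets, those of ttr-9, ttr-12, ttr-14, ttr-17, ttr-20, ttr-21, ttr-26, ttr-27 and ttr-47. That is 27.3% of the members, where 14.2% of all probe sets tested had this order, and the difference between the shares was not tested. Neither share takes account of the margin, which was narrow for some members. ttr-47 read 2697.2 and 2678.6 on mutant arrays 1 and 2, against a lowest wild-type signal of 2745.5. On mutant array 1, ttr-20 read 181.6 against a lowest wild-type signal of 185.3, and ttr-17 read 1882.0 against 1933.9. The reverse order, with mutant arrays 1 and 2 above all wild-type arrays and mutant array 3 not, was seen for 2 members, ttr-10 and ttr-44, or 6.06%, where 12.9% of all probe sets tested had it. In ttr-17 and ttr-26 mutant array 3 was the brightest of the 6, at 3199.9 and 276.3, so their log2 differences over all arrays were -0.02 and -0.05. Without mutant array 3 these differences were -0.31 and -0.38. ttr-21 read 254.4, 139.6 and 310.7 in mutant arrays 1, 2 and 3 against 279.2 to 356.0 in wild-type. Its log2 difference was -0.53 ± 0.32, and was -0.20 without mutant array 2 and -0.77 without mutant array 3. ttr-9 read 97.2, 110.5 and 224.8 against 146.6 to 243.9, a log2 difference of -0.52 ± 0.37 that was -0.29 without mutant array 1 and -0.89 without mutant array 3.

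Without mutant array 3, 5 ttr probe sets passed the adjusted threshold over all probe sets. Mutant array 3 was set apart for its correlations in these same data, so these calls describe the remaining arrays only. With any other single array left out instead, no probe set was called, in the family or outside it. ttr-39 was higher, at 0.83 ± 0.22 (limma adjusted p = 0.0466), where 5.96% of all probe sets tested were called higher on those arrays. The 4 lower ones were ttr-56 at -1.56 ± 0.28 (limma adjusted p = 0.0129), ttr-12 at -1.75 ± 0.37 (0.0235), ttr-27 at -1.21 ± 0.26 (0.0245) and ttr-14 at -1.28 ± 0.34 (0.0458), where 10.1% were called lower. ttr-32, at -0.69 ± 0.20, did not pass (0.0582). The 4 lower members made up 12.1% of the 33, near the share of all probe sets.

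**Figure D3:**
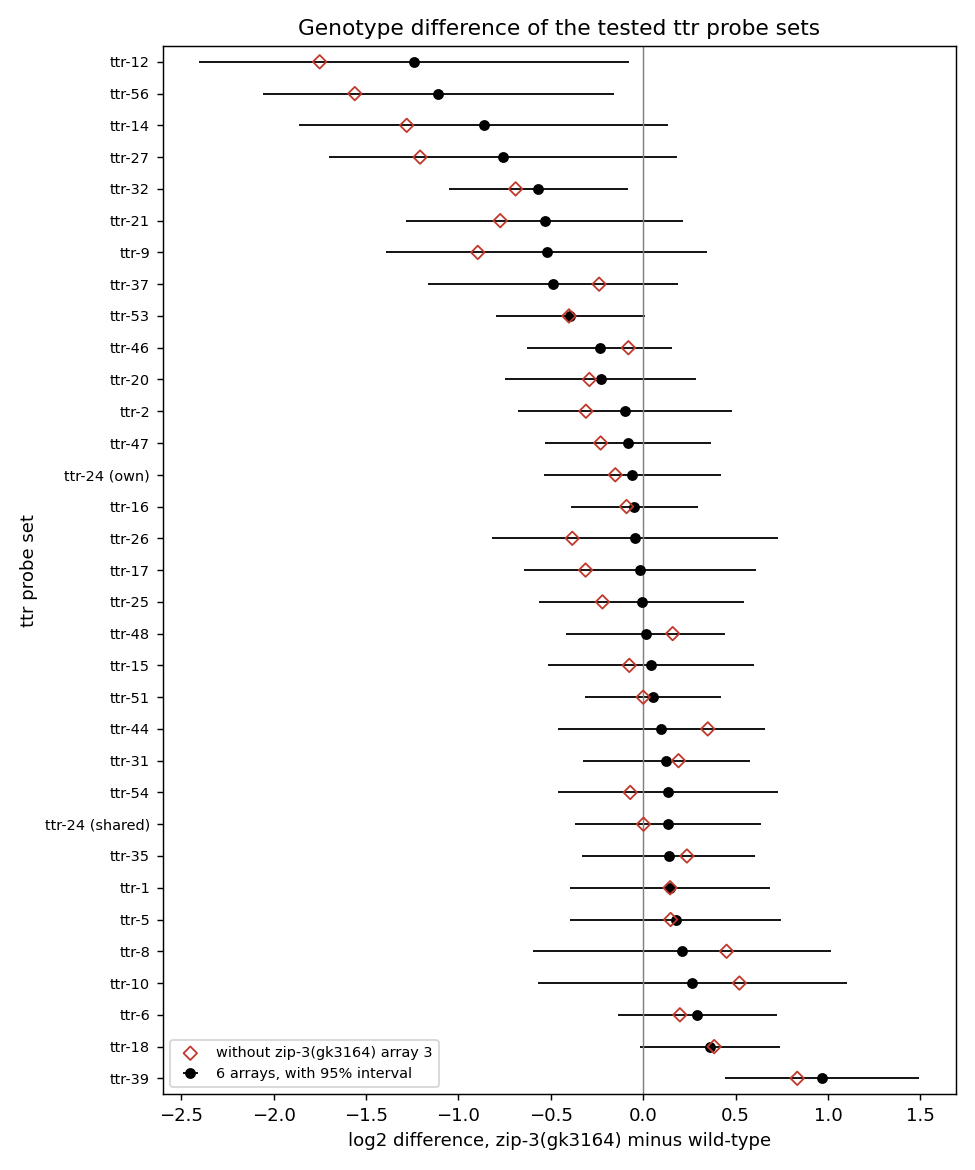
Log2 difference, zip-3(gk3164) minus wild-type, of the 33 tested ttr probe sets from all 6 arrays (black points, with 95% confidence intervals) and without mutant array 3 (open diamonds). Without that array ttr-12 moved from -1.24 to -1.75, ttr-56 from -1.11 to -1.56 and ttr-39 from 0.97 to 0.83.

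Some other gene groups moved with these arrays and are given beside the ttr values. Relative to the wild-type mean, the median of 41 sperm genes was -1.43, -2.13 and -0.28 in mutant arrays 1, 2 and 3, against -0.13 to 0.06 in wild-type. The median of 46 oocyte and germline genes was -0.75, -1.37 and -0.07, against -0.25 to 0.25 in wild-type, and that of 5 vitellogenins, the yolk protein genes, was -0.68, -1.52 and 0.02, against -0.11 to 0.16. Mutant array 3 was thus nearest to wild-type in these lists as in ttr-12, ttr-14, ttr-27 and ttr-56. The summed signal of the sperm list was 521120 to 593738 in wild-type and 153155 to 455817 in the mutant, and no probe set of these lists read 0 on any array. Many sperm probe sets, those of the msp genes among them, carry a suffix for shared sequence. They are thus not separate measures, and the sum can count related transcripts repeatedly. The median of 38 moulting genes was 1.40, 1.52 and 1.16 in the mutant arrays and -0.52, 0.10 and 0.30 in the wild-type arrays, with a summed signal of 9285.1 to 18713.4 in wild-type and 35765.4 to 52929.8 in the mutant, and there all 3 mutant arrays stood apart as they do in ttr-39. Intestine genes had another order. The median of 10 of them was 0.18, 0.39 and -0.26 in mutant arrays 1, 2 and 3, against -0.07 to 0.11 in wild-type. There mutant array 3 alone lay below the wild-type arrays. The part of these groups in the ttr differences was not tested. In whole larvae, fewer cells of a type and less RNA per cell cannot be told apart.

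**Figure D4:**
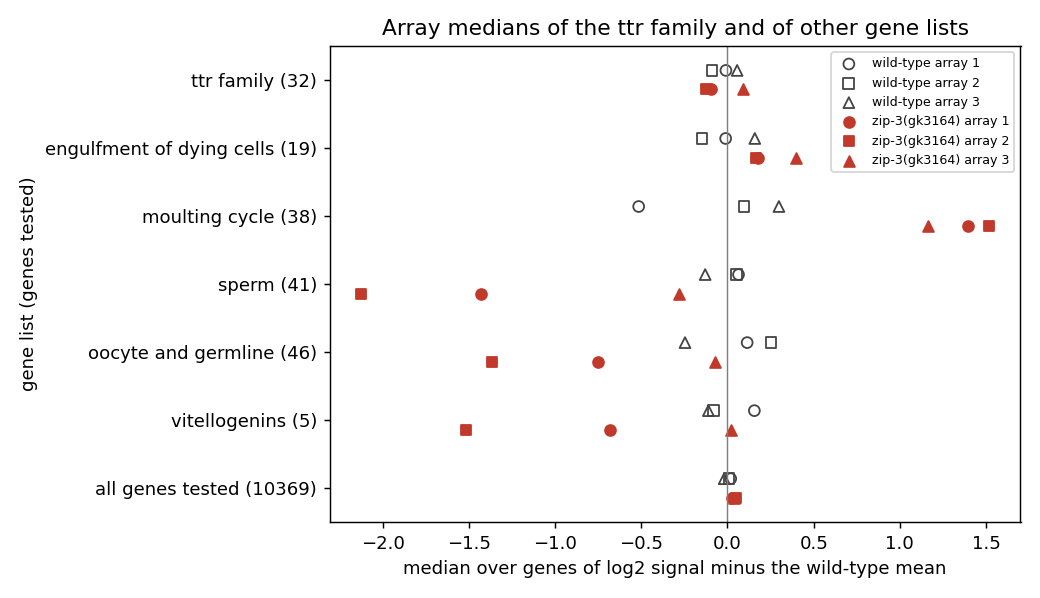
Median over the tested genes of each list (number in parentheses) of the log2 signal minus the wild-type mean, for each wild-type array (open) and zip-3(gk3164) array (filled). The ttr family stays between -0.13 and 0.09 on all 6 arrays, while the sperm list reaches -2.13 and the moulting list 1.52.

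ttr-53, ttr-46 and ttr-37 were also lower in the mutant, with log2 differences between -0.49 and -0.24. ttr-53 read 1053.1, 847.2 and 954.4 in wild-type and 763.4, 674.3 and 730.0 in the mutant, which is a log2 difference of -0.39 ± 0.17 (limma adjusted p = 0.267) with no overlap and similar values in all 3 mutant arrays. Its neighbour ttr-54 stood at 0.13 ± 0.25, with mutant array 3 the brightest of the 6 at 416.7. ttr-46 was very even in wild-type, at 5946.3, 5925.8 and 6038.7, and read 5747.8, 5548.1 and 4092.9 in the mutant. Its log2 difference was -0.24 ± 0.17 (limma adjusted p = 0.485) and was -0.08 without mutant array 3. ttr-37 had the same order within the mutant, with 182.6, 144.4 and 96.6, and stood at -0.49 ± 0.29, or -0.24 without mutant array 3. In both genes mutant array 3 was the mutant array furthest from wild-type, unlike in ttr-12.

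Most of the brightest probe sets of the family differed little. Signals of different probe sets depend on their probes and are not set against each other as transcript levels. ttr-16 had a wild-type mean of 17917.5 ± 1791.1 and a mutant mean of 17378.9 ± 2205.2 (SD, n = 3), a log2 difference of -0.05 with a 95% interval of -0.39 to 0.30. ttr-15 stood at 0.04 (-0.52 to 0.60), ttr-51 at 0.05 (-0.31 to 0.42), ttr-48 at 0.01 (-0.42 to 0.44), ttr-2 at -0.10 (-0.68 to 0.48) and ttr-47 at -0.08 (-0.53 to 0.37). The signs of ttr-2, ttr-15, ttr-16, ttr-47, ttr-48 and ttr-51 turned under some scalings or array sets, and the intervals allow changes in either direction. ttr-44 stood at 0.10 (-0.46 to 0.66), with 6258.6 and 4890.6 in mutant arrays 1 and 2 above the wild-type range of 3964.8 to 4650.1 and mutant array 3 below it at 3279.1.

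Some neighbouring genes are given side by side here, and differences between neighbours were not tested. ttr-24, ttr-25 and ttr-26 lie in a row on chromosome V, and their log2 differences lay between -0.06 and 0.13. The 2 probe sets of ttr-24 differed in sign, at 0.13 ± 0.21 for the brighter one, whose sequence is shared, and -0.06 ± 0.21 for the other, with both intervals including 0. ttr-16 and ttr-17, side by side on chromosome IV, stood at -0.05 and -0.02. On chromosome III, ttr-1 stood at 0.15 ± 0.23 and ttr-2 at -0.10 ± 0.25. The other tested members, ttr-5, ttr-10, ttr-31 and ttr-35, stood between 0.13 and 0.27, and ttr-20 at -0.23 ± 0.22. Of these, ttr-10 ranged from -0.05 to 0.52 and ttr-20 from -0.30 to -0.11 without single arrays. None of the 5 passed an unadjusted limma p of 0.05 on the 6 arrays. The 3 probe sets that match 2 ttr genes each stood at -0.80, -0.30 and 0.18 and none passed the adjusted threshold.

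The members did not vary together as 1 group. Over 496 pairs of tested ttr genes, the median correlation of log2 signals across the 6 arrays was 0.03, and 7 pairs, or 1.41%, exceeded 0.9, against 2.80% of the pairs among every 10th gene tested. With each signal taken relative to its genotype mean, the median correlation was 0.12, and 21 ttr pairs, or 4.23%, exceeded 0.9, against 3.66%. These are descriptions over 6 arrays that share their scaling. The pair most alike was ttr-15 and ttr-51 (r = 0.97), both with sequence-sharing probe sets, followed by ttr-37 and ttr-46 (0.94) and ttr-32 and ttr-56 (0.94). The log2 signals of 22 of the 32 genes spread more widely over the mutant arrays than over the wild-type arrays, 68.8% of them, against 66.1% of all genes tested. The widest spreads in the mutant were an SD of 1.06 for ttr-12 and 0.83 for ttr-14, and in wild-type 0.56 for ttr-10.

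The 8 members below the filter were ttr-13, ttr-19, ttr-22, ttr-23, ttr-28, ttr-29, ttr-50 and ttr-52. ttr-52 read 19.4, 38.6 and 18.3 in wild-type and 18.1, 37.7 and 19.9 in the mutant, signals at which these arrays do not support a comparison of the engulfment gene. ttr-13 read 68.3, 52.4 and 82.4 in wild-type and 31.4, 6.94 and 33.02 in the mutant, the 1 dim member whose groups did not overlap, and with no filter its log2 difference was -1.79 ± 0.66 (limma adjusted p = 0.279). ttr-29, in a row with ttr-27 and ttr-28, read 50.1, 69.0 and 62.6 in wild-type and 21.5, 3.35 and 74.3 in the mutant, with mutant arrays 1 and 2 below the wild-type range and mutant array 3 above it. ttr-23 was above its wild-type range on mutant arrays 1 and 3, at 122.8 and 68.9 against 32.5 to 58.8. ttr-19, ttr-22, ttr-28 and ttr-50 stayed between 1.42 and 69.2 on all arrays.

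The engulfment pathway in which TTR-52 acts was covered by 21 listed genes, of which 19 were tested. In that list 0 genes passed the adjusted threshold, 1 was higher and 1 lower at an unadjusted limma p under 0.05, and 17 of 19 differences were positive with a median of 0.23. Over all 10369 genes tested, 5475 differences were positive, 1023 genes were higher and 1044 lower at that unadjusted level. Some other lists also had large shares of positive differences. The moulting list did so as above, neuron genes with 12 of 12 positive and a median of 0.20. Body wall muscle genes had 10 of 12 positive and a median of 0.25. Intestine genes, with 6 of 10 positive and a median of 0.07, and pharynx genes, with 4 of 9 and -0.21, did not share this. Unlike in the moulting list, the genotypes overlapped in the neuron and body wall muscle lists. The neuron median was 0.21 in wild-type array 3, against 0.18 to 0.35 in the mutant arrays. The body wall muscle median was 0.33 in wild-type array 3, against 0.01 to 0.43 in the mutant arrays. The part of such lists in the engulfment values was not tested. eff-1, a cell fusion gene also needed with TTR-52 for rejoining cut axons, read 73.6, 109.2 and 114.3 in wild-type and 338.6, 489.2 and 288.7 in the mutant, with no overlap. Its log2 difference was 1.90 ± 0.29 (limma adjusted p = 0.0689). psr-1, which encodes a phosphatidylserine receptor, stood at -0.78 ± 0.28, with 759.6, 785.8 and 552.2 in wild-type and 462.2, 281.6 and 501.8 in the mutant (limma adjusted p = 0.203). ced-1, the receptor that TTR-52 bridges to dying cells, stood at 0.65 ± 0.32, and nrf-5, whose secreted product acts with TTR-52 and the transporter CED-7, at -0.17 ± 0.24. psr-1 and nrf-5 were the only members of the list with a negative difference. pat-3, next after ced-1 by size of the moderated statistic, stood at 0.39 ± 0.20.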

How the data were processed

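The authors deposited linear MAS5 intensity values per probe set, for which the submitters' processing notes name Affymetrix Expression Console and MAS5, with versions not given in the sources used here. MAS5 subtracts mismatch signal, which makes dim probe sets noisy, and each array had been scaled to a mean of 500.2 without the lowest and highest 2% of values. No detection calls were used here. Of 22625 probe sets, 77 were controls. Signals were taken to log2 with no offset, and probe sets with a mean at or above the 40th percentile were tested with limma 3.58.1 in R 4.3.3 (genotype term, intensity trend, two-sided, Benjamini-Hochberg over 13529 probe sets, threshold 0.05). Genes were named from the platform annotation, and the brightest probe set stood for a gene. The limma p-values weigh the genotype difference against the spread between these arrays within a genotype, moderated over all probe sets tested. The ttr members, gene lists, tests and alternatives were chosen with earlier results of these data known. Members named with full values were those with the smallest p, up to 12 in each direction, those without overlap first, the 5 brightest, and genes whose probe sets differed in sign. The rule also named ttr-52 and ttr-33, and ttr-33 is not analysed here. Added after seeing the data was a count with the 3 probe sets that match 2 ttr genes. Counts of called probe sets, the ttr family median and the difference of each tested ttr gene were recomputed with single arrays omitted. Other settings dropped shared-sequence probe sets, or used a replicate block, weighted arrays or other normalization (quantile, median centring). Further settings used an offset of 16, other filters (none, 60th percentile), and robust or untrended moderation. The median and the differences were also recomputed with a gene's probe sets averaged, where called probe sets were not counted.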

Additional observations from a re-analysis of the deposited data

How the results depend on the processing

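Of the ttr probe sets tested, 0 passed the adjusted threshold under each alternative that counted them except 2. There 8 passed with array weights, where 4738 of all probe sets did, and 5 without mutant array 3. Leaving out single arrays gave 0 to 5. limma's array weights were 5.89 for mutant array 1 and 0.27 for mutant array 3. Members at an unadjusted p under 0.05 numbered 4, 11 with array weights, and 1 to 8 when single arrays were left out, 8 without mutant array 3 and 1 or 2 without any other. With the 3 probe sets that match 2 ttr genes, a setting added after seeing the data, 5 did and 0 passed. Over all probe sets the count of 18 became 42 with an offset of 16, 0 with the replicate block, and 0 to 2167 without single arrays, with 2167 without mutant array 3 and 0 without any other. Same-numbered deviations correlated at 0.016, 0.050 and -0.16, which cannot show whether same-numbered arrays were paired. The block called 0 ttr probe sets. With the block the unadjusted limma p was 0.0080 for ttr-14 and 0.069 for ttr-32, against 0.080 and 0.028 in the main fit. The family median ranged from -0.085 to 0.053 over 18 alternatives, and the median pair correlation was -0.011 with a filter at the 60th percentile and -0.019 to 0.068 without single arrays. Signs turned for members near 0, none of them called there: ttr-16 (0.10) and ttr-17 (0.013) under quantile normalization, ttr-15 (-0.016), ttr-48 (-0.045) and ttr-51 (-0.0052) with centred arrays, and ttr-31 (-0.033), ttr-1 (-0.049), ttr-15 (-0.086) and ttr-51 (-0.015) with array weights. Leaving out single arrays, the log2 difference ranged from -0.23 to 0.024 for ttr-47, -0.053 to 0.52 for ttr-10, -0.012 to 0.21 for ttr-31, -0.056 to 0.45 for ttr-8, -0.070 to 0.27 for ttr-54, -0.12 to 0.35 for ttr-44, -0.11 to 0.061 for ttr-16, -0.20 to 0.24 for ttr-15, -0.042 to 0.16 for ttr-51, -0.31 to 0.096 for ttr-2, -0.31 to 0.19 for ttr-17, -0.22 to 0.16 for ttr-25, -0.38 to 0.20 for ttr-26 and -0.15 to 0.16 for ttr-48. The cause was not tested. Dim signal limits the 8 members below the filter.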
